A study of Homo sapiens with 10 samples.

Results

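The 4 libraries of drug-survived H460 cells were compared with the 3 libraries of parental H460 cells, which together are 7 of the 10 libraries in the series. H460 is an established human lung cancer cell line. The members were chosen by their sample labels: 1 library of cisplatin-resistant (CR), 2 of paclitaxel-resistant (PR) and 1 of doxorubicin-resistant (DR) cells, against 3 parental libraries of the same line in 2D culture. CR cells had survived 4 µM cisplatin, PR cells 5 nM paclitaxel and DR cells 0.5 µM doxorubicin. Each drug was present for 3 days and was followed by 3 days in fresh medium, after which the cells were re-plated, and RNA was taken on day 8. No vehicle is named for the parental cells. All values come from poly(A) RNA of whole cultures, so a change in the mix of cells and a change within each cell cannot be told apart.

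Cisplatin cross-links DNA, doxorubicin traps topoisomerase II on DNA, and paclitaxel stabilises microtubules and stops cells in mitosis. DNA damage and failed divisions both turn on CDKN1A, the gene of the cyclin-dependent kinase inhibitor p21. When these kinases are blocked, RB-family proteins hold down 2 sets of promoters, the E2F-bound promoters of DNA replication genes and the promoters of mitotic genes that carry a CHR element. Cells that stay arrested for long are known to secrete cytokines, proteases and matrix proteins. H460 cells are known to have lost CDKN2A, the gene of p16.

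Levels are given as FPKM, reads scaled by the authors to transcript length and library size, and fold changes come from edgeR's quasi-likelihood test on the read counts of 18398 genes. A gene was called at a Benjamini-Hochberg adjusted p under 0.05. It was counted as shared by the 3 drugs when it was called and lay more than 2-fold from parental cells to the same side for CR, PR and DR cells each. The fold for each drug has no test of its own in CR and DR cells, which have 1 library each, and all 3 drugs are set against the same parental libraries.

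The libraries held between 59499787 and 89541774 reads on genes, so for all but the lowest genes the number of libraries and not the depth limited precision. Between 21036 and 21603 genes had at least 1 read in the parental libraries, against 22720 in CR, 25781 and 26133 in PR and 26745 in DR. Pearson's r of log2 CPM across genes was between 0.969 and 0.978 for pairs of parental libraries, 0.968 and 0.984 for pairs of drug-survived libraries, and 0.905 and 0.946 between the arms. The columns have 2 forms of library name, which the labels do not call batches: the first covers parental 1, parental 3 and PR 1, and the second parental 2, CR, PR 2 and DR. The cytokeratins KRT8, KRT18 and KRT19 were high in all 7 libraries, with KRT18 at FPKM values of 349, 279.6 and 233 in parental, 190.4 in CR, 193 and 265 in PR and 285 in DR, whereas EPCAM, CDH1 and the lung lineage markers NKX2-1, SFTPB and SFTPC were at or near 0 FPKM in every library. The leukocyte and endothelial markers PTPRC, CD3E, PECAM1 and CDH5 were at no more than 0.157 FPKM. VWF, of endothelium, NAPSA, of lung epithelium, and DCN, of fibroblasts, were called higher in drug-survived cells (adjusted p = 0.0234, 0.0255 and 0.0408), at no more than 0.319 FPKM in any library. The call of VWF was lost without parental 1, parental 2, parental 3 or DR (adjusted p between 0.0512 and 0.0944). The call of NAPSA was lost without parental 1 (adjusted p = 0.0696). The call of DCN was lost without parental 1, parental 3, CR, PR 1 or PR 2 (adjusted p between 0.0518 and 0.123). The fibroblast markers COL1A1, which rose, and COL3A1, which fell, are given with the collagens. The part of these markers in the results was not tested. A further fibroblast marker, PDGFRB, was at 0.862, 2.32 and 4.23 in parental, 4.61 in CR, 5.72 and 7.07 in PR and 4.24 in DR and was not called (adjusted p = 0.0994). PDGFRB was called without parental 3 (adjusted p = 0.0117). CD14, a monocyte marker, was at 2.78, 8.34 and 9.49 in parental, 14.6 in CR, 11.5 and 17.1 in PR and 11.8 in DR and was not called (adjusted p = 0.072). CD14 was called without parental 3 (adjusted p = 0.0387).

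More than 1 in 3 genes differed between the arms, and the genes shared by all 3 drugs were about evenly split between higher and lower once genes of very low level were set aside. Of the 18398 genes tested, 3382 (18.4%) rose and 2838 (15.4%) fell in drug-survived cells, a total of 6220 (33.8%). Over all genes the median log2 fold change was 0.06. Changes shared by the 3 drugs numbered 1994 higher genes (10.8%) and 1013 lower genes (5.51%). Of the 1994, 1260 had a mean FPKM under 1 even in the drug-survived arm, as had 159 of the 1013 in the parental arm. Among the 12519 genes with a mean of at least 1 FPKM in the higher arm, 734 were shared higher and 854 shared lower. Of the 1994, 198 had 0 reads in all 3 parental libraries, so their fold has no parental level. Such genes passed the filter on low counts only through the drug-survived arm and could only be called higher. The drug-survived libraries also had more genes with a read than the parental ones, and the part of this in the number of low-level higher genes was not tested. With upper-quartile scaling the split of all called genes was 4193 higher and 2031 lower, with the median of all genes at 0.234. When any 1 library was left out, between 4216 and 6557 genes were called and between 2382 and 3523 were shared. The gene lists described here held 567 entries, and all but 18 passed the filter on low counts and were tested. Counts of list members given below stand against 18.4% of all genes that rose and 15.4% that fell. For shared genes these shares were 10.8% and 5.51%. The cytokine, collagen, laminin, integrin, protease and study gene lists each held 1 tested member with 0 reads in every parental library.

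The arms did not overlap in log2 CPM for 4172 genes (22.7%) to the higher side and 3370 (18.3%) to the lower side. A stricter count asked that each drug-survived library be over 2-fold away from each parental one. It held for 1146 higher (6.23%) and 483 lower genes (2.63%), 1629 in all. Without parental 3 it held for 2503, where the rule asks for fewer comparisons and is easier to meet. Of the 3007 shared genes, 2711 (90.2%) were more than 2-fold apart within both forms of library name, and 3006 had the same direction in both. The shared rule asks for over 2-fold to the same side with each drug in these same libraries, so both numbers are in part fixed by it. Genes at the edge of the shared rule show how fine it cuts. ORAI3, a calcium channel gene, was inside with log2 fold changes of 1.71 in CR cells, 1.00 in PR cells and 1.36 in DR cells, and MAN2B2, a lysosomal mannosidase gene, was outside with 1.66, 1.00 and 1.68, where the PR value fell just short of 1. The call of ORAI3 was lost without parental 2 (adjusted p = 0.058).

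**Figure D1:**
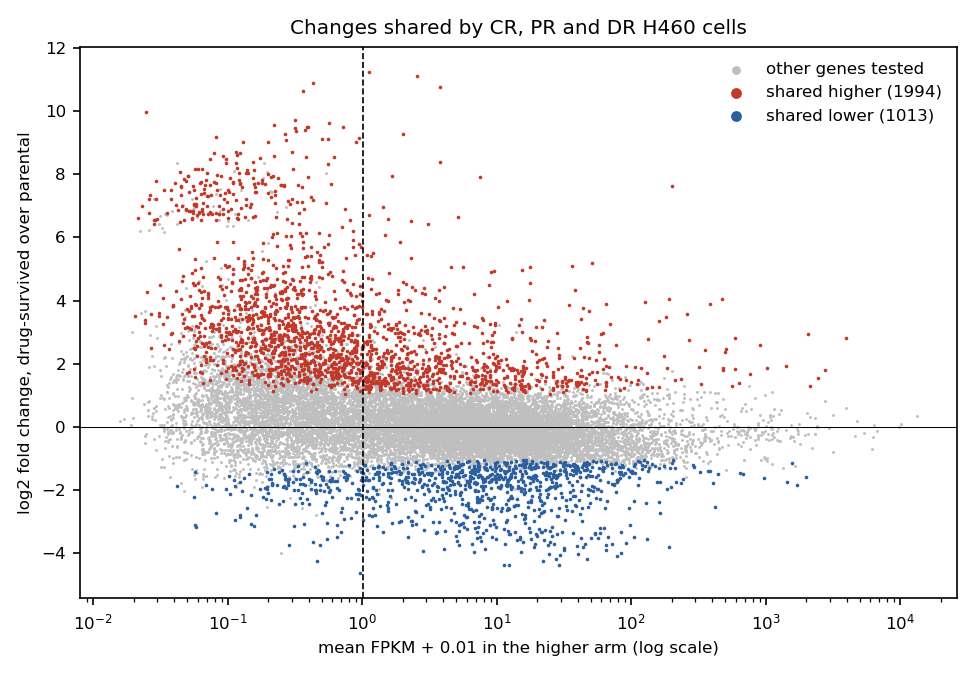
Log2 fold change of drug-survived against parental H460 cells (y axis) against the higher of the arms' mean FPKM plus 0.01 (x axis, log scale) for the 18398 genes tested. Coloured points are the 1994 higher and 1013 lower genes shared by all 3 drugs, and the dashed line marks 1 FPKM, left of which lie 1260 of the higher and 159 of the lower ones. Of the 209 shared genes with a log2 fold change over 6.5, 194 had 0 reads in every parental library.

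The 12 largest rises included genes of matrix enzymes, a collagen, an integrin subunit, a cytokine and several surface proteins. They and the 12 largest falls were chosen among called genes with every drug-survived library over 2-fold from every parental one. That their arms do not overlap follows from that rule. MMP1 (NCBI Gene 4312, chr11:102789919-102798160), the interstitial collagenase, was at FPKM values of 1.30, 1.03 and 0.478 in parental, 182 in CR, 219.6 and 364 in PR and 45.2 in DR. Gene positions are those of RefSeq on GRCh38.p14. MMP1 was low in each parental library, and the lowest drug-survived library, DR, was still 34.8 times the highest parental one (log2 fold change 7.62 ± 0.73 (SE), adjusted p = 0.000183). CLCA2 (NCBI Gene 9635, chr1:86424171-86456553), a surface protein gene induced by DNA damage, was at 0.0402, 0.00675 and 0.0294 in parental, 0.842 in CR, 10.8 and 7.64 in PR and 10.9 in DR. Its arms did not overlap, and the CR library was far below the other drug-survived libraries (log2 fold change 7.90 ± 0.96 (SE), adjusted p = 0.000387). SULF2 (NCBI Gene 55959, chr20:47657406-47786627), an extracellular sulfatase that trims heparan sulfate, was at 1.73, 0.838 and 1.30 in parental, 56.5 in CR, 40.0 and 42.1 in PR and 66.4 in DR (log2 fold change 5.19 ± 0.41 (SE), adjusted p = 9.8e-05). COL7A1 (NCBI Gene 1294, chr3:48564073-48595329), the anchoring-fibril collagen, was at 1.03, 0.810 and 1.01 in parental, 24.6 in CR, 39.5 and 58.7 in PR and 22.0 in DR (log2 fold change 5.10 ± 0.36 (SE), adjusted p = 9.8e-05). The 4 drug-survived values of both genes lay within 3-fold of each other and well above all parental values.

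ITGA3, the integrin subunit of a laminin receptor, was at 1.50, 1.34 and 2.31 in parental, 27.4 in CR, 33.1 and 39.2 in PR and 53.4 in DR (log2 fold change 4.35 ± 0.34 (SE), adjusted p = 9.8e-05). MEGF6, an EGF-repeat protein gene, was at 0.689, 0.451 and 0.831 in parental, 14.8 in CR, 15.8 and 25.2 in PR and 15.2 in DR (log2 fold change 4.54 ± 0.31 (SE), adjusted p = 9.8e-05). GPRC5C and ADGRF4, both orphan receptor genes, rose with log2 fold changes of 4.95 ± 0.44 and 5.06 ± 0.74 (SE). In each of these 4 genes the drug-survived libraries lay closer to each other, as a ratio, than to any parental library.

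RRAD, a small GTPase gene, was at FPKM values of 0.0700, 0.0573 and 0 in parental, 1.47 in CR, 6.32 and 11.6 in PR and 1.36 in DR (log2 fold change 6.65 ± 1.03 (SE), adjusted p = 0.00123). IL1B, the gene of the cytokine interleukin-1 beta, was at 0.624, 0.137 and 0.0266 in parental, 1.90 in CR, 11.6 and 20.3 in PR and 2.43 in DR (log2 fold change 4.89 ± 1.05 (SE), adjusted p = 0.00612). RHCG, an ammonium transporter gene, was at 0.642, 0.191 and 0.176 in parental, 1.58 in CR, 11.9 and 16.7 in PR and 4.69 in DR (log2 fold change 4.49 ± 0.79 (SE), adjusted p = 0.00226). In all 3 genes both PR libraries were above the CR and DR libraries, and no drug-survived library overlapped a parental one. With no filter on low counts beyond 1 read in any library, the call of IL1B was lost (adjusted p = 0.0669).

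**Figure D2:**
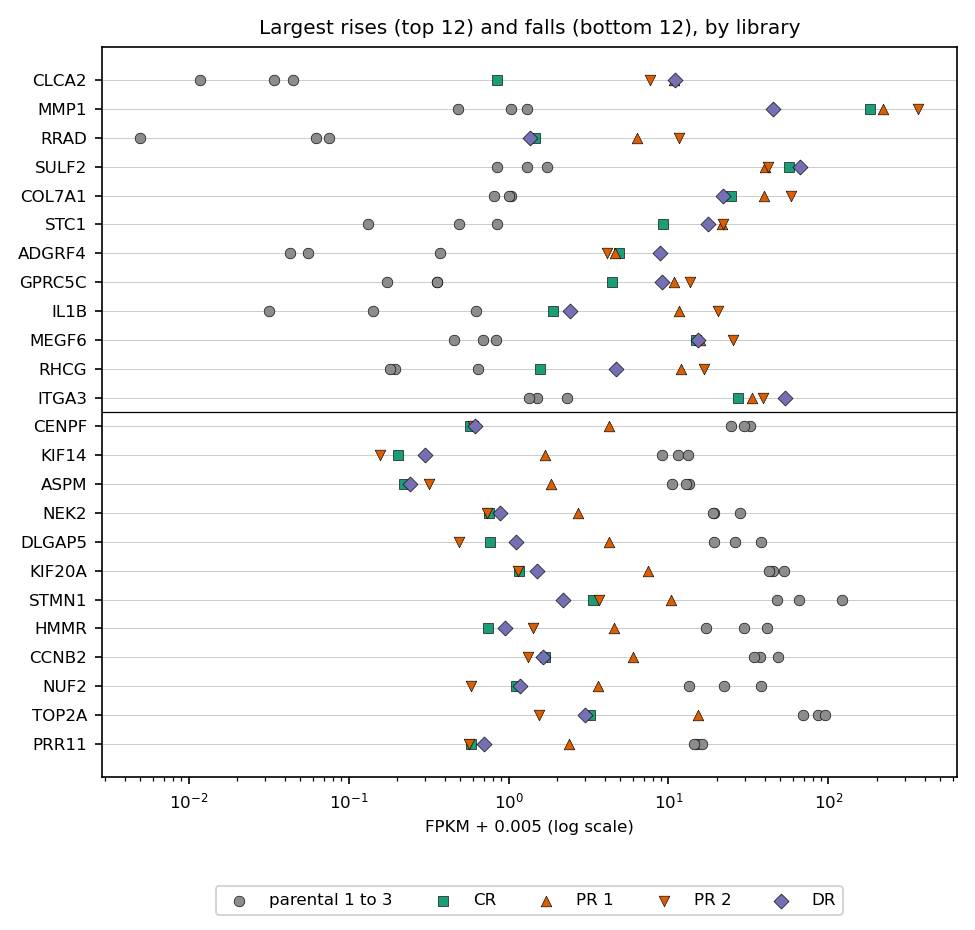
FPKM (x axis, log scale, 0.005 added) of the 12 genes with the largest rise and the 12 with the largest fall in each of the 7 libraries, with grey points for parental and coloured points for CR, PR and DR libraries. By the rule that chose the genes, no drug-survived point overlaps a parental point of its gene. PR 1 is the highest drug-survived library for all 12 lower genes.

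Genes known to be induced by DNA damage rose in most cases. Of 29 tested, 24 rose (82.8%, beside 18.4% of all genes), 16 of them shared by all 3 drugs. Of the others, 1 fell and 4 were not called. The median log2 fold change was 1.25 beside 0.06 for all genes. CDKN1A (NCBI Gene 1026, chr6:36676463-36687332), the gene of p21, was at FPKM values of 33.0, 25.3 and 20.7 in parental, 654 in CR, 343 and 498 in PR and 404 in DR, an 18.0-fold difference of the means (log2 fold change 4.06 ± 0.32 (SE), adjusted p = 9.8e-05). GDF15, a stress cytokine gene, was at 34.1, 13.8 and 21.8 in parental, 273 in CR, 381 and 643 in PR and 233 in DR (log2 fold change 3.89 ± 0.42 (SE), adjusted p = 0.000261). MDM2, a ubiquitin ligase gene, was at 14.1, 13.3 and 11.3 in parental, 47.6 in CR, 71.1 and 65.1 in PR and 36.9 in DR (log2 fold change 2.12 ± 0.24 (SE), adjusted p = 0.00027). For these 3 genes the arms were separate by more than 2-fold, with CR highest for CDKN1A and a PR library highest for the other two.

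SPATA18, a mitochondrial quality-control gene, was at 1.05, 0.756 and 0.981 in parental, 9.10 in CR, 10.8 and 10.6 in PR and 8.29 in DR (log2 fold change 3.22 ± 0.21 (SE), adjusted p = 9.8e-05). TP53INP1, a stress-induced gene, rose with a log2 fold change of 2.99 ± 0.37 (SE), TP53I3, a quinone oxidoreductase gene, with 2.60 ± 0.22, PHLDA3, an inhibitor of AKT, with 2.22 ± 0.21 and GADD45A, a growth arrest gene, with 2.19 ± 0.26. The death receptor gene FAS rose with 1.81 ± 0.26. The change was not uniform over the list. CCNG1, cyclin G1, fell with -0.55 ± 0.18, while BBC3 (PUMA), an apoptosis gene, rose with 1.25 ± 0.32. The call of CCNG1 was lost without parental 2, parental 3, CR, PR 2 or DR (adjusted p between 0.0513 and 0.107). The call of BBC3 was lost without parental 1 or parental 2 (adjusted p = 0.0587 and 0.0626).

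Among 7 tested inhibitors of the cell cycle and RB-family genes, CDKN1A alone rose and 4 fell. CDKN2C, the gene of p18, was at 6.87, 8.98 and 6.27 in parental, 1.11 in CR, 2.04 and 1.65 in PR and 1.51 in DR (log2 fold change -2.37 ± 0.23 (SE), adjusted p = 0.000183). RBL1 (p107) and RB1 also fell, with -1.73 ± 0.25 and -0.59 ± 0.20 (SE), as did CDKN2D (p19), at 2.13, 3.99 and 3.59 in parental, 2.16 in CR, 1.47 and 1.77 in PR and 1.43 in DR (adjusted p = 0.0295). CDKN1B, the gene of p27, was not called, with 0.06 ± 0.25. CDKN2A was listed at 0 in 6 of the 7 libraries and at 0.0229 FPKM in DR. The call of RB1 was lost without parental 1, parental 2, CR, PR 2 or DR (adjusted p between 0.0695 and 0.113). The call of CDKN2D was lost without parental 2, parental 3, PR 1, PR 2 or DR (adjusted p between 0.0649 and 0.096). Members that fell numbered 2 without parental 2, PR 2 or DR. With upper-quartile scaling 2 fell, as with the mean of the 3 drugs in place of the mean of the 4 libraries.

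Genes of mitosis fell without exception. All 31 tested genes of the spindle, kinetochore and cytokinesis fell in drug-survived cells, with a median log2 fold change of -3.70 and log2 fold changes between -4.39 and -2.19, and all 31 were shared by the 3 drugs. The background share of genes that fell was 15.4%. CENPF (NCBI Gene 1063, chr1:214603195-214664571), a kinetochore protein gene, was at FPKM values of 24.5, 32.3 and 29.7 in parental, 0.572 in CR, 4.27 and 0.595 in PR and 0.610 in DR (log2 fold change -4.39 ± 0.70 (SE), adjusted p = 0.00136). KIF20A, a kinesin of cytokinesis, was at 45.3, 52.9 and 42.7 in parental, 1.16 in CR, 7.46 and 1.14 in PR and 1.50 in DR (log2 fold change -4.20 ± 0.62 (SE), adjusted p = 0.000954). PLK1, the polo-like kinase that drives mitotic entry, was at 79.8, 55.4 and 59.6 in parental, 2.00 in CR, 14.2 and 2.50 in PR and 2.90 in DR (log2 fold change -3.74 ± 0.61 (SE), adjusted p = 0.00158). The arms were far apart for all 3 genes, and PR 1 lay several times above CR, PR 2 and DR.

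PR 1 was the highest drug-survived library for 31 of the 31 mitosis genes. The median of the list was -2.39 within the first form of library name, where PR 1 is the drug-survived library, and -4.62 within the second, where CR, PR 2 and DR are. Without PR 1 the median was -4.37, and 31 of the 31 genes fell.

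NEK2, a centrosome kinase gene, was at 19.1, 28.2 and 19.0 in parental, 0.752 in CR, 2.71 and 0.732 in PR and 0.876 in DR (log2 fold change -4.24 ± 0.44 (SE), adjusted p = 0.000235). STMN1, the gene of the microtubule destabiliser stathmin, was at 65.2, 121 and 47.9 in parental, 3.37 in CR, 10.4 and 3.70 in PR and 2.19 in DR (log2 fold change -4.08 ± 0.49 (SE), adjusted p = 0.000375). ASPM and KIF14, genes of a spindle pole protein and a kinesin, fell with -4.37 ± 0.69 and -4.38 ± 0.72 (SE), and DLGAP5, HMMR, NUF2 and PRR11, genes of spindle, kinetochore and cell cycle proteins, with -4.20 ± 0.62, -4.06 ± 0.57, -4.02 ± 0.55 and -3.97 ± 0.47. The proliferation marker MKI67 was at 33.8, 19.9 and 25.8 in parental, 1.01 in CR, 6.15 and 0.655 in PR and 1.22 in DR (log2 fold change -3.70 ± 0.67 (SE), adjusted p = 0.00261). In none of these genes did the arms overlap, which the rule for the largest falls fixed in advance for all but MKI67.

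The promoters of mitotic and replication genes that fell differ in the elements they hold. The promoters below are the 170 bases before the first listed RefSeq start of each gene on GRCh38.p14, 5′ to 3′ on the gene's strand. They are shown since they carry these elements close to the start, and were chosen after the matches were seen. Capitals mark TTTGAA (CHR) and CCAAT on either strand in the first 3, from mitotic genes, and TTTCCCGC or TTTGGCGC (E2F) and CCAAT on either strand in the last 3, from replication genes.
PLK1 (chr16:23678719-23678888, + strand): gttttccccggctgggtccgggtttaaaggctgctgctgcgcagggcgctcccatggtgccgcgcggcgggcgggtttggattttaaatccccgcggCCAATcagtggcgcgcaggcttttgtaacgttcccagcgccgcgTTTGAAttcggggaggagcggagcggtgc
KIF11 (chr10:92592960-92593129, + strand): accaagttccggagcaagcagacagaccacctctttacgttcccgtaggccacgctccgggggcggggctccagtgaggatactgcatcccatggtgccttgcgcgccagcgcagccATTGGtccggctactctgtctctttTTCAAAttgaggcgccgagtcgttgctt
HMMR (chr5:163460462-163460631, + strand): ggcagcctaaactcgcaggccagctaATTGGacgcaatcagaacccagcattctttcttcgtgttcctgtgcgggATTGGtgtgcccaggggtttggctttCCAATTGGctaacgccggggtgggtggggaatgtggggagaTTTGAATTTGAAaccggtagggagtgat
CDT1 (chr16:88803619-88803788, + strand): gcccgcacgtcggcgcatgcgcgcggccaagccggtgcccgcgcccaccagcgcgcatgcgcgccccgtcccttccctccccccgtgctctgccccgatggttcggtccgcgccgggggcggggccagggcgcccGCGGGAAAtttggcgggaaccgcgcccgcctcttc
GINS2 (chr16:85688955-85689124, - strand): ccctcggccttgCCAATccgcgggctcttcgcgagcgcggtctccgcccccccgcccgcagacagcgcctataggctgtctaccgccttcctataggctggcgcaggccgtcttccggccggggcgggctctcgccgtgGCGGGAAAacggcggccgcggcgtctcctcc
MCM6 (chr2:135876444-135876613, - strand): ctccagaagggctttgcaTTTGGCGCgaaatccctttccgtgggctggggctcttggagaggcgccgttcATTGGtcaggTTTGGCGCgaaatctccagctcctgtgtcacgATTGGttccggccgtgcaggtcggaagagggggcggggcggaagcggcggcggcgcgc

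PLK1 has CHR at -29 and CCAAT at -73, counted from the start, and KIF11, a spindle kinesin gene, has them at -28 and -53. HMMR holds 2 CHR copies in a row at -28 and -22. CDT1 and GINS2 have an E2F site at -35 and -31, and MCM6 has 2, at -152 and -90. These are matches of letters and were not tested as binding sites.

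Over the promoter windows of 250 bases before to 50 after the start, CHR was present in 20 of 27 mitosis genes with a window (74.1%) and in 0 of 28 replication genes, beside 10.4% of the 13134 genes tested that have one. The E2F letters were present in 14 of the 28 replication genes (50%) and in 7.41% of the mitosis genes, beside 3.43% of all. CCAAT was present in 77.8% of mitosis and 53.6% of replication genes, beside 36.0% of all. Of the genes shared by all 3 drugs, 21.5% of the lower and 12.0% of the higher ones held CHR, and 9.60% of the lower and 1.72% of the higher ones held E2F letters. The letters of a p53 element were searched as well and were present in 0 of 24 DNA damage-induced genes with a window. They were present in 2 of 1341 shared higher genes (0.149%) and 1 of 729 shared lower genes (0.137%), beside 5 of 13134 of all (0.0381%). Matches to the p53 element had to be exact, and these counts are too small to compare. Elements outside the window were not searched.

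**Figure D3:**
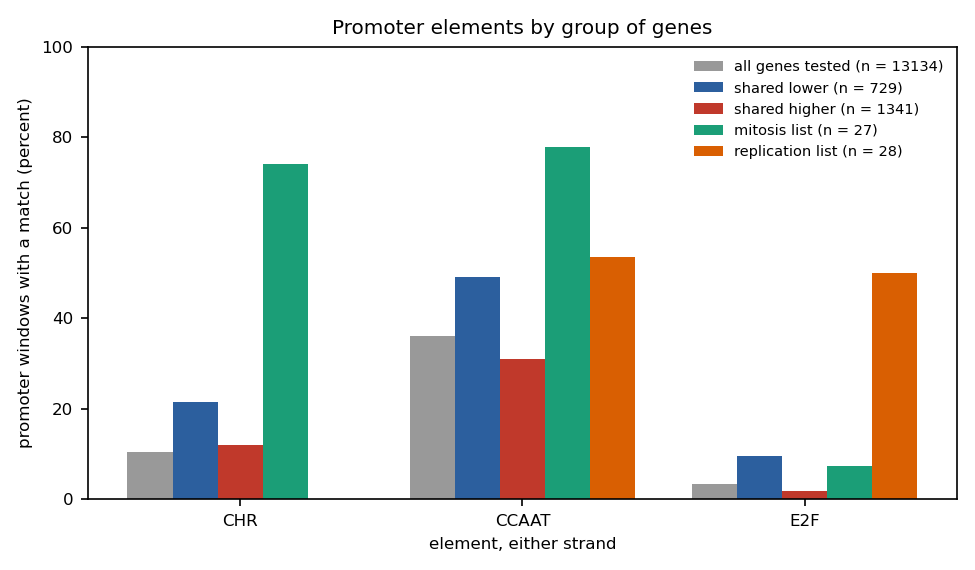
Share of promoter windows (y axis, percent, from 0) that hold CHR, CCAAT or E2F letters on either strand, for all genes tested, the genes shared lower and shared higher, and the mitosis and replication lists. CHR stands at 74.1% in the mitosis list and 0% in the replication list, E2F at 7.41% and 50%.

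Genes of DNA replication fell together. All 33 tested fell, with a median of -2.11 beside -3.70 for mitosis, and 30 were shared by the 3 drugs. MCM7 (NCBI Gene 4176, chr7:100092728-100101397), a subunit of the replicative helicase, was at FPKM values of 159, 125 and 106 in parental, 23.3 in CR, 37.9 and 20.5 in PR and 21.0 in DR (log2 fold change -2.40 ± 0.25 (SE), adjusted p = 0.000237). CDC45, which joins that helicase to the fork, was at 22.7, 22.8 and 16.6 in parental, 2.74 in CR, 3.65 and 0.845 in PR and 2.19 in DR (log2 fold change -3.22 ± 0.40 (SE), adjusted p = 0.000401). MCM10 and CDT1, factors that load and start the helicase, fell with -2.95 ± 0.51 and -2.90 ± 0.35 (SE), and GINS2 and MCM6, both of the helicase complex, with -2.67 ± 0.37 and -2.16 ± 0.30. The arms were apart in each. PCNA, the sliding clamp, fell and was at 218, 222 and 129 in parental, 107 in CR, 99.3 and 88.2 in PR and 83.9 in DR (log2 fold change -1.10 ± 0.21 (SE), adjusted p = 0.00367). LIG1 and RPA2, which act in repair as well as replication, had the smallest falls, -0.62 ± 0.16 and -0.74 ± 0.21. The call of RPA2 was lost without parental 1, parental 2, PR 2 or DR (adjusted p between 0.0545 and 0.0773).

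Parental 3 was the lowest parental library for 27 of the 33 replication genes, for example GMNN, the gene of the licensing inhibitor geminin, at 29.5, 29.8 and 10.2 in parental, 8.61 in CR, 8.57 and 6.03 in PR and 7.44 in DR. Its parental 3 value was close to the CR and PR 1 values, while parental 1 and 2 stood far above them. GMNN was called all the same (log2 fold change -1.65 ± 0.31 (SE), adjusted p = 0.00325).

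Of 11 genes that make nucleotides, 10 fell, with a median of -1.55. TK1, thymidine kinase, was at 60.2, 66.6 and 48.9 in parental, 7.21 in CR, 9.70 and 2.32 in PR and 5.02 in DR (log2 fold change -3.36 ± 0.39 (SE), adjusted p = 0.000343). RRM2, the S-phase subunit of ribonucleotide reductase, was at 126, 103 and 64.1 in parental, 12.1 in CR, 22.9 and 3.79 in PR and 9.86 in DR (log2 fold change -3.10 ± 0.48 (SE), adjusted p = 0.00125). The damage-induced subunit RRM2B, which is counted among the DNA damage-induced genes and not among these 11, rose, at 5.63, 7.21 and 5.17 in parental, 11.7 in CR, 17.2 and 12.0 in PR and 12.8 in DR (log2 fold change 1.05 ± 0.19 (SE), adjusted p = 0.00266). UMPS, of pyrimidine synthesis, was not called, with -0.51 ± 0.23. UMPS was called without parental 3 (adjusted p = 0.0284).

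Cyclins, their kinases and the E2F family fell in most cases. Of 23 tested, 17 fell, 14 of them shared by all 3 drugs, and 2 rose. CCNB1, cyclin B1, was at 157, 152 and 85.8 in parental, 7.06 in CR, 24.3 and 8.49 in PR and 9.39 in DR (log2 fold change -3.54 ± 0.40 (SE), adjusted p = 0.000313). CCNB2 and CDC25C, which act at mitotic entry, fell with -4.03 ± 0.48 and -3.86 ± 0.31 (SE), CDK1 with -3.32 ± 0.44, and the transcription factors FOXM1 and MYBL2 with -3.34 ± 0.50 and -3.38 ± 0.46. CCND1, the G1 cyclin D1, rose and was at 33.0, 17.3 and 17.1 in parental, 106 in CR, 72.0 and 84.4 in PR and 103 in DR (log2 fold change 1.92 ± 0.30 (SE), adjusted p = 0.00125). Every drug-survived library was above every parental one for CCND1. CCND2 also rose, but from a level near 0, with a highest FPKM of 0.193. CCNE1, cyclin E1, was not called, with -0.38 ± 0.31. The call of CCND2 was lost without parental 2 (adjusted p = 0.0811).

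Chromosome structure genes followed. All 8 tested genes of condensin and topoisomerase II alpha fell, with a median of -2.81. TOP2A (NCBI Gene 7153, chr17:40388525-40417896), the enzyme that doxorubicin traps, was at 86.2, 95.2 and 69.2 in parental, 3.21 in CR, 15.3 and 1.54 in PR and 2.99 in DR (log2 fold change -3.99 ± 0.66 (SE), adjusted p = 0.0016). It was low with all 3 drugs, and PR 1 was again the highest of the drug-survived libraries. NCAPG, NCAPH and NCAPG2, subunits of the condensin complexes, fell with -3.58 ± 0.47, -3.49 ± 0.42 and -2.96 ± 0.31 (SE). All 10 genes that copy chromatin marks and assemble histones fell as well, with a median of -1.98, among them H2AZ1, a histone variant gene, at 488, 489 and 283 in parental, 66.5 in CR, 108 and 71.2 in PR and 66.7 in DR (log2 fold change -2.54 ± 0.24 (SE), adjusted p = 0.000183).

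Of 11 genes of the nuclear lamina and high-mobility-group proteins, 9 fell. LMNB1 (NCBI Gene 4001, chr5:126776623-126837020), lamin B1, whose loss is known from senescent cells, was at 70.9, 59.9 and 45.1 in parental, 5.71 in CR, 14.1 and 3.24 in PR and 4.86 in DR (log2 fold change -3.21 ± 0.43 (SE), adjusted p = 0.000572). HMGB2, a DNA-bending protein gene, was at 44.2, 73.4 and 51.9 in parental, 4.17 in CR, 10.2 and 3.97 in PR and 3.20 in DR (log2 fold change -3.51 ± 0.37 (SE), adjusted p = 0.00024). LMNA, lamin A/C, was not called and was at 175, 214 and 200.0 in parental, 209.9 in CR, 229 and 234 in PR and 253 in DR, with overlapping arms. HMGA2 was the member that rose, with 0.99 ± 0.32 (SE), at no more than 1.04 FPKM. The call of HMGA2 was lost without parental 2, parental 3, PR 1, PR 2 or DR (adjusted p between 0.0709 and 0.127).

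Of 17 genes of homologous recombination and the Fanconi pathway, 16 fell and 0 rose, with a median of -2.64. BRCA1 was at 11.0, 9.25 and 7.59 in parental, 2.32 in CR, 2.23 and 0.704 in PR and 1.63 in DR (log2 fold change -2.54 ± 0.34 (SE), adjusted p = 0.000598). BLM, a RecQ helicase gene, and RAD54L and FANCD2, of recombination and cross-link repair, fell with -3.35 ± 0.45, -3.05 ± 0.38 and -2.76 ± 0.24 (SE). PALB2, which links BRCA1 to BRCA2, was not called, with -0.29 ± 0.20.

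Of 24 genes of nucleotide excision repair, 3 rose (12.5%, beside 18.4% of all genes), 7 fell (29.2%, beside 15.4%) and 14 were not called, with a median of -0.26. None of the 10 called was shared by all 3 drugs. The 7 falls were 3 with upper-quartile scaling and 2 with the mean of the 3 drugs. The 3 that rose were the damage sensors DDB2 and XPC and the transcription-coupled factor ERCC6. DDB2 was at 11.4, 19.4 and 15.0 in parental, 35.7 in CR, 25.5 and 39.4 in PR and 28.9 in DR (log2 fold change 0.97 ± 0.23 (SE), adjusted p = 0.00891). ERCC6 was at 1.74, 1.58 and 2.27 in parental, 3.28 in CR, 4.57 and 5.14 in PR and 4.58 in DR (log2 fold change 1.32 ± 0.21 (SE), adjusted p = 0.00136). Arms did not overlap in either gene, as was the case to the higher side for 22.7% of all genes. The falls were small and included RAD23B, with -0.79 ± 0.18, and the TFIIH subunit gene GTF2H2, with -0.85 ± 0.22 (SE). Members that fell numbered 4 without parental 1 or parental 2 and 2 without PR 2.

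**Figure D4:**
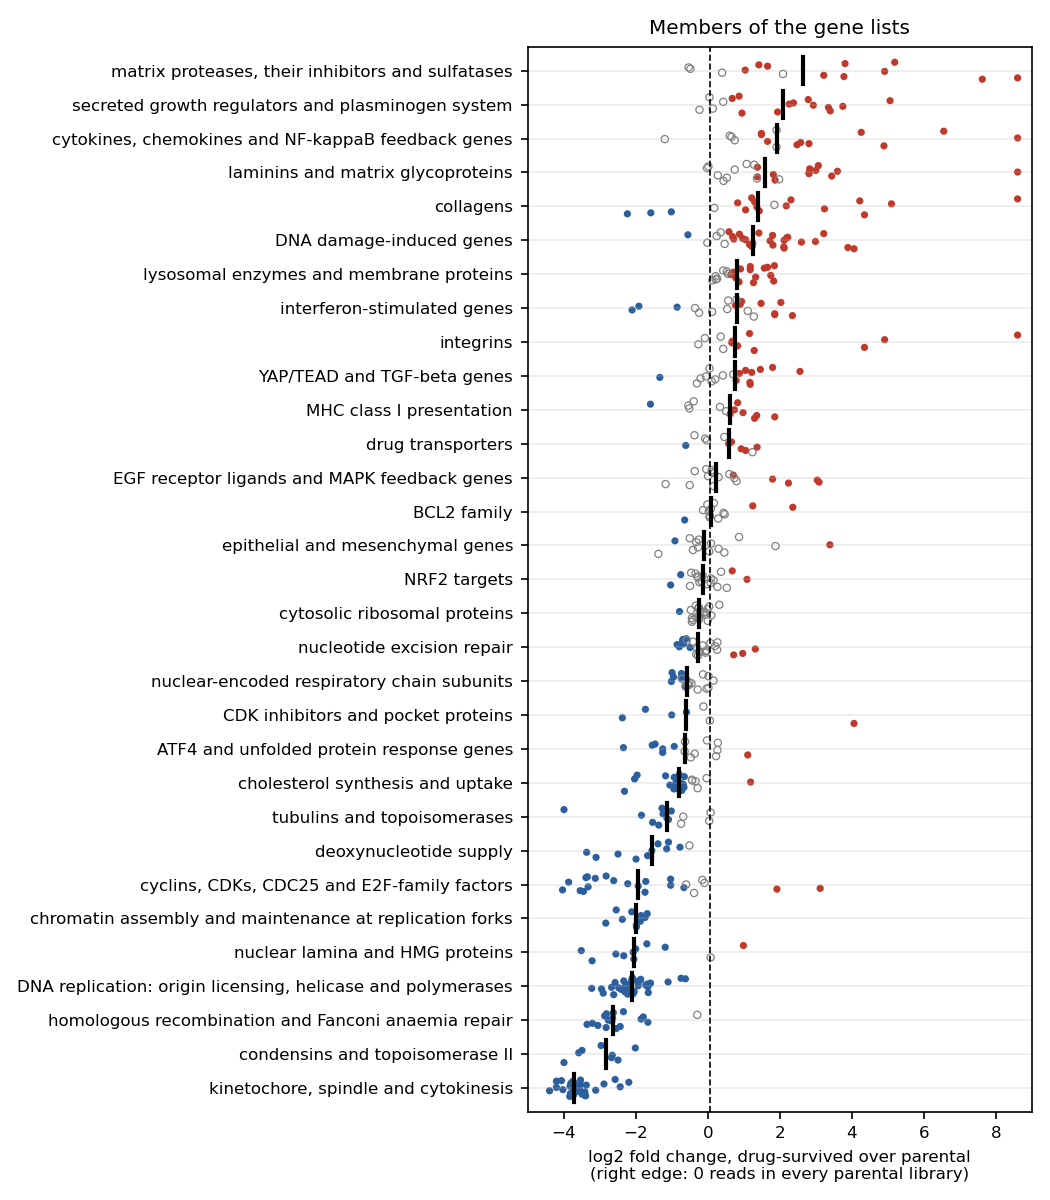
Log2 fold change of drug-survived against parental cells (x axis) for every tested member of each gene list, filled where the gene was called and open where it was not. Black bars mark the list medians and the dashed line the median of all genes, 0.06. Members with 0 reads in every parental library are drawn at the right edge, since their fold has no parental level.

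Proteases and their inhibitors mostly rose, and several stood near 0. Of 14 tested, 10 rose, 9 of them shared by all 3 drugs, and 0 fell, with a median of 2.65. As the mean of the 3 drugs the median was 2.28 over the same 14. Without parental 3 it was 3.99, over 16 tested. With limma on log2(FPKM + 1) it was 1.09 over 10 tested, of which 6 rose. A filter of 1 FPKM in at least 2 libraries gave 1.64, also over 10 tested. The medians over 16 and 10 genes do not cover the same genes as the 14. Beside MMP1 and SULF2, the stromelysin gene MMP10 was at 0.0519, 0.330 and 0.218 in parental, 1.94 in CR, 2.33 and 3.32 in PR and 0.699 in DR (log2 fold change 3.22 ± 0.63 (SE), adjusted p = 0.00402). MMP28, epilysin, was at 0, 0.0204 and 0.00847 in parental, 0.492 in CR, 0.595 and 0.704 in PR and 0.485 in DR (log2 fold change 4.91 ± 0.70 (SE), adjusted p = 0.000809). MMP2, gelatinase A, had 0 reads in all parental libraries and 25 reads in CR, 616 and 501 in PR and 61 in DR. All 4 drug-survived libraries held reads, and the highest counts were those of both PR libraries. With no filter beyond 1 read the call of MMP2 was lost (adjusted p = 0.0915). TIMP1, the abundant inhibitor of matrix metalloproteinases, rose too and was at 198, 229.8 and 240.3 in parental, 786 in CR, 702 and 845 in PR and 748 in DR (log2 fold change 1.66 ± 0.19 (SE), adjusted p = 0.000327).

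Secreted factors rose in 12 of 16 tested cases, 9 of them shared by all 3 drugs, and fell in 0, with a median of 2.10. SERPINE2, an inhibitor of plasminogen activators, was at 286, 245 and 222 in parental, 3333 in CR, 1259.9 and 1733 in PR and 1948 in DR (log2 fold change 2.93 ± 0.38 (SE), adjusted p = 0.000491), and CR was the highest library. The activator gene PLAU, urokinase, was at 18.4, 38.1 and 44.2 in parental, 125 in CR, 177 and 236 in PR and 168 in DR (log2 fold change 2.26 ± 0.32 (SE), adjusted p = 0.000775). The tissue-type activator gene PLAT rose with 2.38 ± 0.43 (SE), while the urokinase receptor PLAUR was not called, with 0.43 ± 0.22.

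IGFBP4 and IGFBP7, binding proteins for insulin-like growth factors, were apart in all libraries, with IGFBP7 at 14.4, 14.7 and 14.6 in parental, 204 in CR, 121 and 182 in PR and 134 in DR (log2 fold change 3.35 ± 0.26 (SE), adjusted p = 9.8e-05) and IGFBP4 higher by 3.40 ± 0.33 (SE). IGFBP3 was at 79.9, 455 and 480.2 in parental, 1520.5 in CR, 1592 and 1505 in PR and 1032 in DR (log2 fold change 1.94 ± 0.51 (SE), adjusted p = 0.0157), where parental 1 was far below the other parental libraries. STC1, a glycoprotein hormone gene, was at 0.128, 0.838 and 0.483 in parental, 9.21 in CR, 21.5 and 21.8 in PR and 17.7 in DR (log2 fold change 5.06 ± 0.57 (SE), adjusted p = 0.000274). Its relative STC2 rose with 2.79 ± 0.33.

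Cytokine genes rose in 10 of 16 tested cases, 7 of them shared by all 3 drugs, and fell in 0, with a median of 1.91. As the mean of the 3 drugs the median was 1.43 over the same 16. Without PR 2 it was 1.18, over 14 tested and so not the same genes. With no filter beyond 1 read 18 were tested and 6 rose. The calls lost there included those of CCL2, IL11 and IL1B (adjusted p = 0.0959, 0.0769 and 0.0669). IL6 (NCBI Gene 3569, chr7:22727200-22731998) was at 60.3, 72.9 and 108 in parental, 482 in CR, 423 and 718 in PR and 406 in DR (log2 fold change 2.48 ± 0.29 (SE), adjusted p = 0.000327). CXCL8, the neutrophil attractant interleukin-8, was at 74.5, 94.8 and 61.0 in parental, 544 in CR, 444 and 1009 in PR and 349 in DR (log2 fold change 2.81 ± 0.34 (SE), adjusted p = 0.000398). CXCL1 was at 180.4, 126 and 115 in parental, 1109 in CR, 606 and 1175 in PR and 729 in DR (log2 fold change 2.58 ± 0.31 (SE), adjusted p = 0.000375). These 3 were well expressed in parental cells and higher in every drug-survived library. A second set stood high in PR cells mainly. CCL2, a monocyte attractant, had 0 reads in the parental libraries and 21 reads in CR, 381 and 419 in PR and 30 in DR. IL11 was at 0.0436, 0.0277 and 0.0314 in parental, 0.0461 in CR, 0.880 and 2.17 in PR and 0.0964 in DR and IL24 at 0.0158, 0 and 0 in parental, 0.0545 in CR, 1.11 and 1.91 in PR and 0.123 in DR, and both were called. IL1A was at 2.42, 0.841 and 0.860 in parental, 0.660 in CR, 6.63 and 14.8 in PR and 1.64 in DR and was not called (adjusted p = 0.105), and CR lay below all parental libraries. CXCL5 had -1.19 ± 0.45 (SE) and was not called. NFKBIA and TNFAIP3, feedback inhibitors of NF-kappaB, rose with 1.49 ± 0.39 and 1.49 ± 0.34. TNF had no reads outside PR cells, with at most 0.0460 FPKM. The call of IL11 was lost without parental 1, parental 2 or parental 3 (adjusted p = 0.0668, 0.0856 and 0.0718). IL1A was called without CR (adjusted p = 0.0357). CXCL5 was called without parental 3 (adjusted p = 0.0247). The call of NFKBIA was lost without parental 2 or parental 3 (adjusted p = 0.0625 and 0.0664).

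Collagens changed in both directions. Of 18 tested, 13 rose (72.2%, beside 18.4% of all genes), 11 of them shared by all 3 drugs. Another 3 fell (16.7%, beside 15.4%), 2 of them shared. Of the 18, 1 had 0 reads in every parental library. COL13A1, a transmembrane collagen gene, was at 0.117, 0.0610 and 0.0659 in parental, 1.44 in CR, 1.42 and 2.33 in PR and 2.21 in DR (log2 fold change 4.22 ± 0.37 (SE), adjusted p = 0.000138). COL6A1, of microfibrils, was at 20.7, 14.1 and 24.3 in parental, 56.3 in CR, 52.6 and 70.3 in PR and 43.8 in DR (log2 fold change 1.36 ± 0.25 (SE), adjusted p = 0.00274). COL1A1, of fibrillar type I, was at 0.193, 0.0848 and 0.188 in parental, 0.783 in CR, 6.51 and 6.26 in PR and 1.41 in DR (log2 fold change 4.35 ± 0.75 (SE), adjusted p = 0.00208), with both PR libraries highest. The 3 that fell were COL3A1, fibrillar type III, and the basement membrane pair COL4A1 and COL4A2. COL3A1 was at 13.7, 21.3 and 26.5 in parental, 2.50 in CR, 7.22 and 5.37 in PR and 4.29 in DR (log2 fold change -2.23 ± 0.32 (SE), adjusted p = 0.000829). COL4A5 and COL4A6, the other basement membrane pair tested, rose with 1.43 ± 0.29 and 1.05 ± 0.24 (SE). COL5A2, the collagen with the highest level, was not called, at 328, 425 and 516 in parental, 627 in CR, 436 and 449 in PR and 538 in DR.

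Of 22 laminins and other matrix genes, 12 rose (54.5%, beside 18.4% of all genes), each shared by all 3 drugs, and 0 fell. Of the 22, 1 had 0 reads in every parental library. FN1, fibronectin, reached the highest level, at 467, 171 and 911 in parental, 4804 in CR, 4115 and 3315 in PR and 3691 in DR (log2 fold change 2.81 ± 0.53 (SE), adjusted p = 0.00325). Its parental values spread widely, and all drug-survived values lay above them. LAMB3, a chain of laminin 332, was at 1.03, 0.318 and 0.568 in parental, 3.16 in CR, 10.5 and 13.2 in PR and 4.24 in DR (log2 fold change 3.44 ± 0.54 (SE), adjusted p = 0.00132). FBN1, fibrillin, was at 1.31, 1.09 and 2.91 in parental, 20.8 in CR, 12.8 and 10.9 in PR and 17.4 in DR (log2 fold change 3.00 ± 0.43 (SE), adjusted p = 0.000806). TGFBI, a matrix protein induced by TGF-beta, was at 569.8, 678 and 928 in parental, 3079 in CR, 2369.5 and 2755 in PR and 2769 in DR (log2 fold change 1.80 ± 0.28 (SE), adjusted p = 0.00114). LAMB1 and LAMC1, abundant laminin chains, were not called, with 0.53 ± 0.41 and 0.28 ± 0.32, and neither was LAMA5, at 23.1, 14.8 and 82.1 in parental, 146 in CR, 107 and 121 in PR and 86.8 in DR, where parental 3 stood close to DR. LAMA5 was called without parental 3 (adjusted p = 0.00184).

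Of 12 integrin genes 8 rose (66.7%, beside 18.4% of all genes), 4 of them shared by all 3 drugs, and 0 fell. Of the 12, 1 had 0 reads in every parental library. Beside ITGA3, the largest among genes with parental reads was ITGB3, a vitronectin receptor chain, at 0.00688, 0.00442 and 0.00789 in parental, 0.121 in CR, 0.369 and 0.355 in PR and 0.181 in DR (log2 fold change 4.91 ± 0.57 (SE), adjusted p = 0.000343). ITGB1, the common partner chain, was abundant and rose by less, at 175, 211 and 177 in parental, 368 in CR, 329 and 276 in PR and 312 in DR (log2 fold change 0.68 ± 0.21 (SE), adjusted p = 0.0303). ITGA6, of a laminin receptor, was not called. The call of ITGB1 was lost without parental 1, parental 2, parental 3, CR, PR 1 or DR (adjusted p between 0.0504 and 0.103). Members that rose numbered 4 without parental 1, 3 without parental 2 and 5 of 11 tested without PR 1 or DR.

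Lysosomal genes rose in most cases. Of 22 tested, 15 rose (68.2%, beside 18.4% of all genes), 8 of them shared by all 3 drugs, and 0 fell, with a median of 0.82. Members that rose numbered 10 without parental 2, 12 without DR and 18 with upper-quartile scaling. PSAP, prosaposin, was at 252, 242 and 294 in parental, 1011 in CR, 997 and 1138 in PR and 968 in DR (log2 fold change 1.85 ± 0.21 (SE), adjusted p = 0.000327). CTSD, cathepsin D, was at 188, 110.3 and 166 in parental, 605 in CR, 463 and 599.7 in PR and 714 in DR (log2 fold change 1.83 ± 0.28 (SE), adjusted p = 0.00111). GAA and MAN2B1, lysosomal glycosidases, rose with 1.75 ± 0.33 and 1.57 ± 0.25 (SE). GLB1, the gene of the beta-galactosidase read out in senescence stains, was at 19.9, 20.3 and 24.0 in parental, 29.1 in CR, 25.3 and 25.4 in PR and 30.6 in DR and was not called (adjusted p = 0.31).

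Class I antigen presentation genes rose in 7 of 13 cases (53.8%, beside 18.4% of all genes) and fell in 1 (7.69%, beside 15.4%). Of the 7, 3 were shared by all 3 drugs. HLA-B was at 19.6, 36.5 and 32.5 in parental, 100.2 in CR, 110.1 and 169 in PR and 90.1 in DR (log2 fold change 1.86 ± 0.27 (SE), adjusted p = 0.000796). HLA-C, whose reads may be shared with close paralogs, rose with 1.36 ± 0.20 (SE). PSMB9, a subunit of the immunoproteasome, fell and was at 8.89, 17.6 and 11.5 in parental, 3.66 in CR, 3.51 and 5.77 in PR and 5.14 in DR (log2 fold change -1.59 ± 0.26 (SE), adjusted p = 0.00172). B2M, the light chain, was not called, with 0.51 ± 0.22. Members that rose numbered 4 without parental 2. Members that fell numbered 2 without parental 1 or parental 2 and 3 without parental 3.

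Of 19 interferon-stimulated genes, 8 rose (42.1%, beside 18.4% of all genes) and 3 fell (15.8%, beside 15.4%). Of these, 3 higher and 2 lower genes were shared by all 3 drugs, and 12 rose with upper-quartile scaling. ISG15 was at 2.77, 5.42 and 3.77 in parental, 11.0 in CR, 12.4 and 20.0 in PR and 19.4 in DR (log2 fold change 1.86 ± 0.31 (SE), adjusted p = 0.00158). IFIT2 rose with 2.35 ± 0.40 (SE). OAS3, an antiviral nucleotide synthase gene, fell and was at 16.6, 12.9 and 18.7 in parental, 3.41 in CR, 4.32 and 3.65 in PR and 4.90 in DR (log2 fold change -2.10 ± 0.22 (SE), adjusted p = 0.000233), as did IFI44L and IFI44, with -1.91 ± 0.28 and -0.85 ± 0.20. OAS1, the most abundant of the list, was at 76.1, 138 and 112 in parental, 165 in CR, 68.9 and 80.4 in PR and 188 in DR and was not called. Members that rose numbered 5 without parental 2.

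Cholesterol synthesis genes fell in 17 of 23 cases and rose in 1, with a median of -0.79. Of the falls, 3 were shared by all 3 drugs at over 2-fold each. ACAT2, which makes the first intermediate acetoacetyl-CoA, was at 28.9, 41.7 and 27.2 in parental, 5.66 in CR, 8.49 and 6.72 in PR and 7.53 in DR (log2 fold change -2.31 ± 0.19 (SE), adjusted p = 0.000134). EBP, a sterol isomerase gene, was at 56.1, 58.8 and 40.5 in parental, 13.4 in CR, 13.9 and 11.7 in PR and 15.5 in DR (log2 fold change -2.03 ± 0.19 (SE), adjusted p = 0.000183). Arms were separate in both, as was the case to the lower side for 18.3% of all genes. INSIG1, a sterol sensor gene, fell with -1.96 ± 0.33 (SE). TM7SF2, a sterol reductase gene, rose with 1.19 ± 0.36 at no more than 1.76 FPKM. The call of TM7SF2 was lost without parental 1, parental 2, CR, PR 2 or DR (adjusted p between 0.0508 and 0.105). Members that fell numbered 10 without parental 2.

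Genes of the ATF4 and unfolded protein responses fell in 6 of 15 cases, 3 of them shared by all 3 drugs, and 1 rose. PHGDH, the first enzyme of serine synthesis, was at 107, 97.1 and 112 in parental, 31.1 in CR, 19.2 and 17.0 in PR and 21.6 in DR (log2 fold change -2.34 ± 0.26 (SE), adjusted p = 0.000261). MTHFD2, of mitochondrial folate metabolism, fell with -1.54 ± 0.22 (SE), and PSAT1 and ASNS with -1.25 ± 0.29 and -1.25 ± 0.29. DDIT3 (CHOP), the stress transcription factor, rose with 1.11 ± 0.31, while ATF4 was not called, with -0.47 ± 0.20. The call of DDIT3 was lost without parental 2 or parental 3 (adjusted p = 0.0793 and 0.0662). ATF4 was called lower with limma (adjusted p = 0.0326) and with the form of library name as a covariate (adjusted p = 0.0445).

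Respiratory chain genes fell in 8 of 20 cases (40.0%, beside 15.4% of all genes) and rose in 0, with a median of -0.57. None of the falls was over 2-fold with all 3 drugs. With upper-quartile scaling 4 fell, and 12 with the form of library name as a covariate. Among them was ATP5F1B, an ATP synthase subunit gene, at 1038, 1187 and 866 in parental, 516 in CR, 484 and 449 in PR and 765 in DR (log2 fold change -0.99 ± 0.25 (SE), adjusted p = 0.0129). Of 20 ribosomal protein genes 1 fell (5.0%, beside 15.4% of all genes), RPS2, with -0.81 ± 0.22, and 0 rose. Targets of NRF2, a pathway that is known to be active in H460 cells through mutant KEAP1, were mostly not called. Of 19, 2 were higher and 2 lower (10.5% each, beside 18.4% and 15.4% of all genes). NQO1 was at 666, 1151 and 714 in parental, 1479.6 in CR, 799 and 1090.2 in PR and 1790.1 in DR. AKR1C1 and OSGIN1 rose with 1.09 ± 0.23 and 0.68 ± 0.23 (SE), and GCLM, of glutathione synthesis, and ME1 fell with -1.03 ± 0.22 and -0.75 ± 0.16. The call of ATP5F1B was lost without parental 2 (adjusted p = 0.0504). The call of RPS2 was lost without parental 2, PR 1 or PR 2 (adjusted p = 0.0577, 0.0508 and 0.0573). The call of OSGIN1 was lost without parental 2, parental 3, PR 2 or DR (adjusted p between 0.0924 and 0.154). Respiratory chain genes that fell numbered 2 without parental 2 and 4 without PR 1 or PR 2.

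Transporter genes known to carry these drugs or their conjugates were called in 6 of 11 cases. Of the 11, 5 rose (45.5%, beside 18.4% of all genes) and 1 fell (9.09%, beside 15.4%). Of the 5, 1 was shared by all 3 drugs. With no filter beyond 1 read 3 rose, and with the mean of the 3 drugs 2. ABCC3, a conjugate exporter, was at 9.13, 9.70 and 24.7 in parental, 39.5 in CR, 40.6 and 39.7 in PR and 45.1 in DR (log2 fold change 1.37 ± 0.36 (SE), adjusted p = 0.0155). ABCC1 and ABCC2, further exporters, rose with 1.05 ± 0.32 and 0.93 ± 0.20 (SE), and ABCC4 fell with -0.61 ± 0.21. ABCB1, the P-glycoprotein gene that exports paclitaxel and doxorubicin, stood near 0 at 0.255, 0.103 and 0.0646 in parental, 0.0659 in CR, 0.892 and 0.332 in PR and 0.196 in DR and was not called over the 4 libraries (adjusted p = 0.222). PR cells alone against parental cells gave an adjusted p of 0.0485 for ABCB1 with edgeR, at log2 fold changes of -1.08 in CR, 1.94 in PR and 0.42 in DR. The copper transporter gene SLC31A1, which moves cisplatin, was not called either. The call of ABCC3 was lost without parental 1 or parental 2 (adjusted p = 0.0621 and 0.0698). The call of ABCC1 was lost without parental 1, parental 2, PR 1 or PR 2 (adjusted p between 0.0557 and 0.0635). The call of ABCC4 was lost without parental 1, parental 2, parental 3, CR, PR 2 or DR (adjusted p between 0.0513 and 0.129). Members that rose numbered 2 without parental 1, PR 1 or PR 2, 1 without parental 2 and 3 without CR or DR.

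Of 13 drug targets, 9 fell, 4 of them shared by all 3 drugs, and 0 rose. The tubulin genes, targets of paclitaxel, were uneven across drugs. TUBB was at 639.6, 522 and 371 in parental, 90.8 in CR, 294 and 343 in PR and 153 in DR (log2 fold change -1.36 ± 0.37 (SE), adjusted p = 0.0181). TUBA1B was at 2137, 1705 and 1244 in parental, 253 in CR, 688 and 689.9 in PR and 445 in DR (log2 fold change -1.84 ± 0.32 (SE), adjusted p = 0.00202). CR was the lowest library for both and the PR libraries stood nearest to parental, with log2 fold changes for TUBB of -2.49 in CR, -0.87 in PR and -1.78 in DR. TUBA4A had 0.08 ± 0.38 (SE) and was not called, at 93.9, 73.7 and 54.7 in parental, 33.6 in CR, 94.2 and 151 in PR and 64.5 in DR. The call of TUBB was lost without parental 1 or parental 2 (adjusted p = 0.0718 and 0.0507). The between-drug test gave an unadjusted p of 0.00414 for TUBB and 0.00985 for TUBA4A, and neither passed adjustment over all genes. Both topoisomerase II genes fell, TOP2B with -1.27 ± 0.22, and TOP1 with -1.01 ± 0.22.

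BCL2-family genes were mostly not called, 2 higher (15.4%) and 1 lower (7.69%) of 13, beside 18.4% and 15.4% of all genes. BCL2 fell, at 4.03, 3.12 and 2.88 in parental, 2.12 in CR, 2.71 and 2.23 in PR and 1.72 in DR (log2 fold change -0.64 ± 0.19 (SE), adjusted p = 0.0253), BMF and BBC3, both genes of death-promoting BH3-only proteins, rose, and MCL1, the abundant survival gene, was at 92.8, 97.2 and 75.3 in parental, 92.8 in CR, 113 and 102 in PR and 91.2 in DR and was not called. Epithelial and mesenchymal genes were mostly not called, with 1 higher and 1 lower of 14 (7.14% each, beside 18.4% and 15.4% of all genes). VIM, vimentin, was at 761, 887 and 964 in parental, 847 in CR, 778 and 669 in PR and 859 in DR and was not called, and ZEB1 fell with -0.91 ± 0.26 (SE). The call of BCL2 was lost without parental 1, PR 2 or DR (adjusted p = 0.0812, 0.0723 and 0.0779). The call of BMF was lost without parental 1, parental 2, CR, PR 1 or PR 2 (adjusted p between 0.052 and 0.147). The call of BBC3 was lost without parental 1 or parental 2 (adjusted p = 0.0587 and 0.0626). The call of ZEB1 was lost without parental 1 or PR 2 (adjusted p = 0.0826 and 0.0599).

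Of 18 genes of EGFR signalling, 5 rose (27.8%, beside 18.4% of all genes), 3 of them shared by all 3 drugs, and 0 fell. They numbered 8 with upper-quartile scaling or DESeq2 and 3 with no filter beyond 1 read. They were the ligands AREG, EREG, TGFA and BTC and the feedback gene SPRY2, while EGFR was at 7.69, 6.72 and 16.3 in parental, 14.7 in CR, 12.2 and 10.0 in PR and 13.3 in DR and was not called. EREG was near 0 and rested on PR cells, at 0.0103, 0.0319 and 0.0132 in parental, 0.0129 in CR, 0.359 and 0.363 in PR and 0.0279 in DR, with overlapping arms and log2 fold changes of -0.42 in CR cells and 0.46 in DR cells. The call of EREG was lost without parental 1, parental 2, parental 3, PR 1 or PR 2 (adjusted p between 0.0988 and 0.14). The call of SPRY2 was lost without parental 1, parental 2, CR, PR 1, PR 2 or DR (adjusted p between 0.0624 and 0.134). Members that rose numbered 3 without parental 1, parental 2, PR 1 or PR 2. AREG was at 0.509, 0.839 and 0.664 in parental, 1.57 in CR, 3.56 and 6.67 in PR and 2.38 in DR (log2 fold change 2.24 ± 0.45 (SE), adjusted p = 0.00454). Of 18 TGF-beta and YAP genes, 9 rose, 1 of them shared by all 3 drugs, and 1 fell, the latter being F3, tissue factor, with -1.33 ± 0.43 (SE). INHBA, activin A, was at 0.444, 0.241 and 0.162 in parental, 0.957 in CR, 3.44 and 3.54 in PR and 0.621 in DR (log2 fold change 2.56 ± 0.58 (SE), adjusted p = 0.00748), with the PR libraries highest. SMAD3 and TGFBR2, a transducer and a receptor, rose with 1.05 ± 0.22 and 1.22 ± 0.23. The call of F3 was lost without parental 1, parental 2, CR, PR 2 or DR (adjusted p between 0.056 and 0.121). TGF-beta and YAP genes that rose numbered 5 of 19 tested without parental 2.

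The genes the study singled out were looked at in the same fit, and were chosen on these samples, so their direction here is not independent evidence. SEZ6L2 (NCBI Gene 26470, chr16:29871159-29899550), a membrane protein gene, was at 3.21, 2.10 and 4.54 in parental, 20.3 in CR, 26.9 and 31.3 in PR and 18.2 in DR (log2 fold change 2.72 ± 0.30 (SE), adjusted p = 0.00027). CHPF, a chondroitin polymerising factor, was at 12.3, 9.89 and 11.0 in parental, 41.9 in CR, 36.3 and 42.1 in PR and 48.1 in DR (log2 fold change 1.81 ± 0.20 (SE), adjusted p = 0.000261). Both were higher in every drug-survived library by more than 2-fold. SEZ6 had 0 reads in the parental libraries and 4 reads in CR, 12 and 24 in PR and 18 in DR. SMARCA4, a chromatin remodeller, fell with -0.67 ± 0.23 (SE, adjusted p = 0.0428), with overlapping arms, and PAF1 and ANXA2 were not called, with -0.38 ± 0.15 and 0.49 ± 0.22. The call of SMARCA4 was lost without parental 1, parental 3, CR, PR 1, PR 2 or DR (adjusted p between 0.0665 and 0.131). ANXA2 was called higher with upper-quartile scaling or library size only (adjusted p = 0.0377 and 0.0453) and with DESeq2 (adjusted p = 0.0476).

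Long non-coding RNAs were mostly called in 1 direction. Of 2649 tested, 630 (23.8%) rose and 76 (2.87%) fell, with a median of 0.64, against 2575 and 2579 of 14068 protein-coding genes. The number of lncRNAs with a read moved with the arm, from 3191 to 3424 in parental libraries to 3988 in CR and 5217 to 5539 in PR and DR, and its part in the result was not tested. NEAT1 (NCBI Gene 283131, chr11:65422798-65445540), the scaffold of paraspeckles, was at 40.9, 122 and 104 in parental, 635 in CR, 534 and 489.5 in PR and 345 in DR (log2 fold change 2.37 ± 0.39 (SE), adjusted p = 0.00162). PPP1R14B-AS1 was at 2.34, 1.94 and 1.57 in parental, 8.37 in CR, 5.85 and 15.3 in PR and 10.4 in DR (log2 fold change 2.23 ± 0.36 (SE), adjusted p = 0.0014). How the counting treated strand is not given in the sources used here, so reads of this antisense gene and of its partner cannot be told apart.

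Over all shared higher genes the median log2 fold change was 2.20 in CR cells, 2.76 in PR cells and 2.31 in DR cells, and over all shared lower genes -1.79, -1.76 and -1.75. Over the shared genes of at least 1 FPKM in the higher arm, the median log2 fold change of the higher ones was 1.85 in CR cells, 1.83 in PR cells and 1.78 in DR cells, and of the lower ones -1.72, -1.75 and -1.73. These medians share the parental libraries, and the rule that chose the genes asks for a change of the same direction and over 2-fold with each drug, so their closeness is in part fixed by it. PR cells alone differed from parental cells in 4689 genes (25.5%), in 1895 without PR 1 and in 978 without PR 2. The test between the 3 drugs called 0 genes (0%) with edgeR, with a smallest adjusted p of 0.356 and 1021 genes at an unadjusted p under 0.05. The same test called 47 without parental 1. DESeq2's likelihood ratio test on the 4 drug-survived libraries alone called 542. With CR and DR at 1 library each, a gene 4-fold different in PR alone was found by the edgeR test in 43% of simulated cases. A difference of that size in PR would thus often be missed. Genes changed in CR or DR alone were not simulated.

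**Figure D5:**
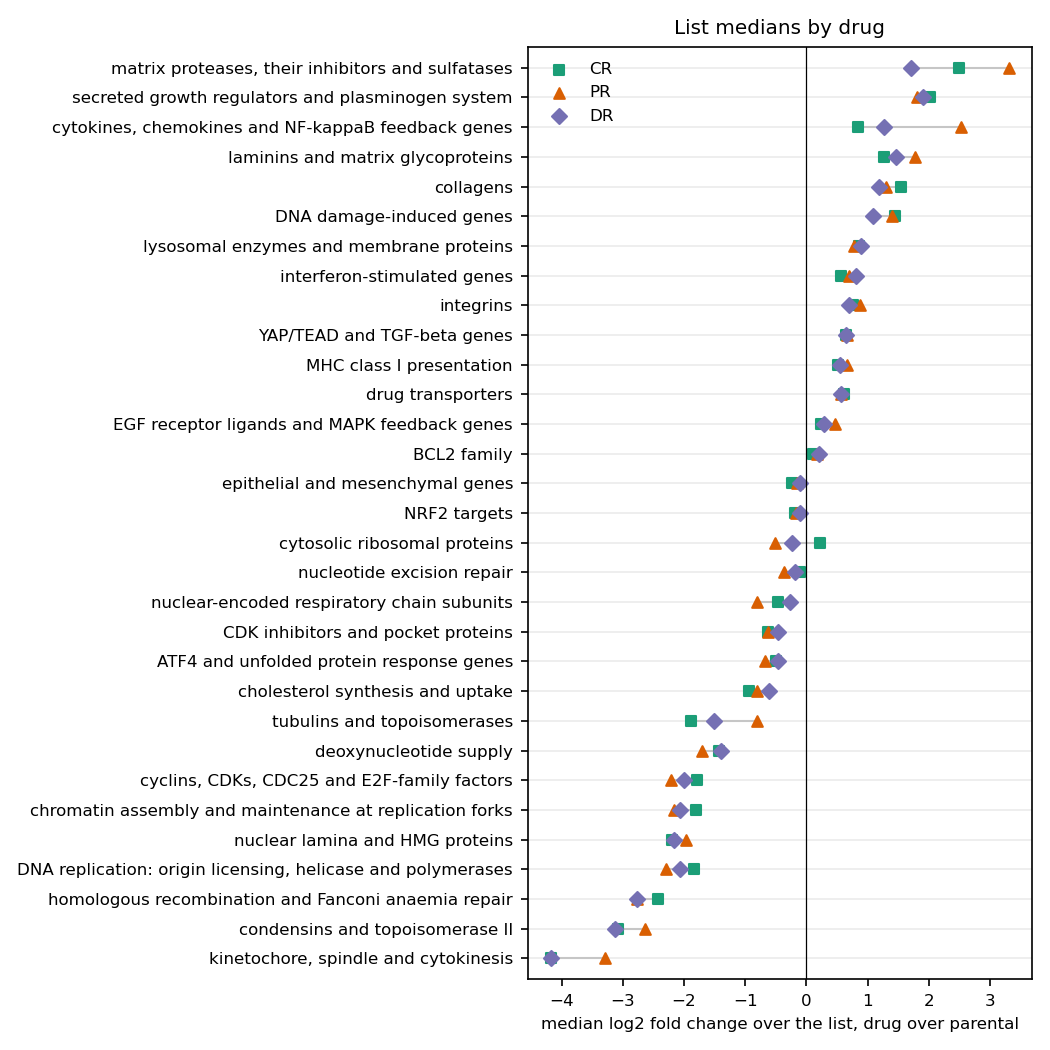
Median log2 fold change against parental cells (x axis) over the tested members of each gene list for CR, PR and DR cells, all set against the same 3 parental libraries. For the mitosis list the medians were -4.17 in CR cells, -3.29 in PR cells and -4.18 in DR cells, and for cytokines 0.85, 2.52 and 1.26.

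The medians of the 3 drugs lay furthest from each other for proteases, cytokines, tubulins with topoisomerases, and mitosis. The protease median was 2.49 in CR cells, 3.31 in PR cells and 1.71 in DR cells. The cytokine median was 0.85 in CR cells, 2.52 in PR cells and 1.26 in DR cells, and both PR libraries were above CR and DR for 12 of the 16 genes. For the mitosis list it was -4.17, -3.29 and -4.18, where the PR value holds PR 1. The differences between drugs were not called for any single gene of these lists with edgeR.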

How the data were processed

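Poly(A) RNA of 7 H460 libraries was compared, 4 from drug-survived and 3 from parental cells. Samples were grouped by their labels. The authors deposited 1 table with read counts, FPKM and TPM for each gene and library. The submitters' processing notes list bcl2fastq 1.8.4, Trimmomatic, HISAT2 2.1.0, StringTie 2.1.3b and the build GRCh38, without saying which step made which value, and strand use in counting is not given in the sources used here. TPM, which the authors scaled within each library, was only checked and not tested. In each library fewer genes had a deposited read count of 1 than of 2, so counts may not be independent reads.

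Read counts were tested with edgeR 4.0.16 in R 4.3.3 (TMM, filterByExpr by arm, robust quasi-likelihood fit, Benjamini-Hochberg over the 18398 genes left). The threshold was an adjusted p under 0.05. Standard errors are the absolute log2 fold change divided by the square root of F, which is an approximation. Folds for each drug and the test between drugs came from a fit with parental, CR, PR and DR groups. Log2 CPM used a prior count of 2. A fold change of a gene with 0 parental reads depends on this fit, so reads are given for such genes instead. Nothing in the labels says that the libraries of a group came from separate cultures, so p-values measure the spread between these libraries, which may be technical. The main fit has no term for drug, so the spread within the drug-survived arm also holds the differences between drugs. PR gave 2 of the 4 libraries of that arm, so paclitaxel weighs more in the main folds than cisplatin or doxorubicin.

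On simulated counts of the same size, 28% of 100 genes changed 2-fold and 77% of 100 genes changed 4-fold were called. Of the calls, 9.48% were false. The simulation held 18398 genes, so a far smaller share was changed than the 33.8% called in the data. The recovered and false shares may therefore not carry over to the data. Alternatives were other scalings, filters and tools (DESeq2 1.42.0, limma 3.58.1 on log2(FPKM + 1)), the form of library name as a covariate, and leaving out each library.

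The members, gene lists and alternatives were chosen with earlier results of these data known. Named genes were the 12 largest rises and 12 largest falls among called genes with an official symbol, every library over 2-fold apart and a mean FPKM of at least 5 in the higher arm, and in each list the largest called changes, the highest levels and members that moved against the rest, as well as genes the study names. Some genes that this rule names are not reported here. Further genes, such as CDKN2A, GLB1 and both genes at the edge of the shared rule, were chosen after their values were seen. Promoter sequences come from RefSeq on GRCh38.p14, and 13134 of the 18398 genes had one. Figures were drawn with matplotlib 3.10.9.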

Additional observations from a re-analysis of the deposited data

Results flagged for a closer look

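Among 201 named genes, 25 had 1 drug-survived library that stood far from the other 3 in FPKM by Dixon's test. Chance marks about 1 in 20 such groups, and genes of one process share their libraries, so these are not 25 separate observations. PR 1 was that library in 18 of the 25, each time as the highest.

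The genes with PR 1 apart were genes of mitosis, cyclins, chromatin, replication and recombination. Among mitosis genes, PR 1 was at 1.84 FPKM for ASPM, 4.27 for CENPF, 4.23 for DLGAP5, 4.94 for KIF11, 1.68 for KIF14, 7.46 for KIF20A, 2.71 for NEK2, 14.2 for PLK1, 2.38 for PRR11 and 6.15 for MKI67. For the cyclins and their regulators, PR 1 was at 24.3 for CCNB1, 6.03 for CCNB2 and 5.26 for FOXM1. It was at 15.3 for TOP2A, 107.5 for H2AZ1, 10.2 for HMGB2, 37.9 for MCM7 and 0.405 for BRCA2. In all of these PR 1 lay below the lowest parental library.

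PR 2 was apart in 4 genes. It was the highest for B2M with 933 FPKM, MEGF6 with 25.2 and PHLDA3 with 61.4, and the lowest for MCM6 with 6.08. DR was apart in 2 genes, as the lowest for IGFBP3 with 1032 FPKM, and as the library that holds reads for CDKN2A, with 0.0229. CR was the highest for COL4A5 with 86.7 FPKM.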

How the results depend on the processing

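The number of called genes was within 1.5 times 6220 under every alternative, from 4216 with limma to 7067 with DESeq2, and between 4216 and 6557 with 1 library left out. The genes shared by all 3 drugs numbered 1634 with a filter of 1 FPKM in at least 2 libraries and 945 with limma on log2(FPKM + 1), against 3007. Both alternatives test fewer genes of low level, and the share of higher genes was 55.0% and 44.4% against 66.3%. With 1 library left out it was between 2382 and 3523, and no value could be had without CR or DR, which have 1 library each. The stricter count of 1629 was 833 with the FPKM filter and 430 with limma, and between 1507 and 2503 with 1 library left out. That rule is easier to meet with fewer libraries, so a rise in the last counts is in part fixed by it. The test between drugs called 542 genes with DESeq2, and between 0 and 47 with 1 parental or PR library left out. PR against parental cells gave 4689 genes, and between 978 and 6550 with 1 library left out, lowest without PR 2. Of all called genes, 67.4% were higher with upper-quartile scaling against 54.4%, and the median of all genes was 0.234 on the log2 scale. The cause of these differences was not tested.

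PR and parental libraries share the numbers 1 and 2, but nothing ties equal numbers together, and the correlation of their differences across genes was 0.086 over 2 pairs. A fit of these 4 libraries that took the number as a replicate block gave 6648 genes for PR against parental cells, beside 6591 without it.

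Over 3 other scalings, limma and the fits with 1 library left out, 352 list medians were recomputed, of which 57 moved by over 1 SD over the drug-survived libraries. Of these, 2 changed sign, both with upper-quartile scaling: NRF2 targets (0.048 against -0.136) and epithelial and mesenchymal genes (0.064 against -0.106). With no filter beyond 1 read, which is outside the 352, the median of the latter list was 0.01, over 15 tested members against 14. Some of the 352 medians also cover another number of tested members than the main fit. Of the recomputed gene results, 2935 kept their direction and side of the threshold, 179 over 34 genes lost their call and 20 over 10 genes gained one. Under at least 1 setting other than leaving out a library, the call was lost for ABCC1, ABCC4, BCL2, BMF, CCL2, CCNG1, CDKN2D, DCN, DDIT3, EREG, F3, HMGA2, IL11, IL1B, IL24, ITGB1, MMP2, ORAI3, OSGIN1, RB1, RPA2, SMARCA4, SPRY2, TM7SF2 and VWF. Under such settings a call was gained for ANXA2, ATF4, B2M, CD14, CXCL5, LAMA5, PDGFRB and PLAUR. A further 17 gene results changed sign, all in 8 genes that were not called. With 1 library left out, the log2 fold change of CCNE1 was between -0.633 and 0.03, of CDKN1B between -0.139 and 0.363, of COL5A2 between -0.004 and 0.365, of EGFR between -0.113 and 0.691, of LMNA between -0.02 and 0.146, of MCL1 between -0.042 and 0.089, of OAS1 between -0.153 and 0.334 and of TUBA4A between -0.285 and 0.319. The lower end came without parental 1 for COL5A2, parental 2 for EGFR, parental 3 for CDKN1B and MCL1, DR for LMNA and OAS1 and PR 2 for TUBA4A, and the upper end of CCNE1 without parental 1. As the mean of the 3 drugs CDKN1B was at -0.01 and TUBA4A at -0.269, and with the form of library name as a covariate OAS1 was at -0.284. With 1 library for CR and DR, 4 against 3 libraries limit precision more than depth does, since the libraries hold at least 59499787 reads.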
